A study of Mus musculus with 8 samples.

Results

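Tumour cells of mouse lung adenocarcinoma that held MHC class II transcripts together with secretory or lipid marker genes numbered 84, of 24838 cells kept. They were chosen from single-cell RNA counts in steps. A cell was keratin-gated when Krt7, Krt8, Krt18 and Cldn4 together gave at least 20 UMIs (unique molecular identifiers, 1 per captured RNA molecule) and more than Sftpa1, Sftpb and Sftpc together, with at most 1 Ptprc UMI, none of Cd3e or Cd79a, and at most 2 of C1qa, C1qb and C1qc. Of the 689 keratin-gated cells, 84 also had at least 10 UMIs of Cd74, H2-Aa and H2-Eb1 in all and at least 2 of the 5 marker genes Lcn2, Lamp3, Hp, Wnt10a and Scd1 detected. These 84 are called members, and the 605 others in the gate are called other keratin-gated cells. The measured counts chose the members, so every difference between members and other keratin-gated cells is a description without a test.

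The study activated Malat1, a nuclear long noncoding RNA, by CRISPRa restricted to the tumour cells of KPC mice, and asked whether this alters the surroundings of the tumour. The tested tumours (labelled mA1) received lentivirus carrying dRNAs against Malat1, and the controls (labelled Con) dRNAs against Tomato. Both groups carry the KPC tumour model and the activation system, the virus was given into the trachea when tumours were started, and 4 tumours per group, the biggest ones, were dissected at 16 weeks. The labels give neither the alleles of the model, the promoter of the activation system, nor the age or number of the mice. Cells carried hashtags on antibodies to CD45 and class I molecules, and each group has 2 libraries, which are the replicates here. The labels do not say which animal each library came from. The Con libraries held sex-linked RNA of opposite sexes and so came from different mice. For the mA1 libraries nothing tells separate animals from 1 source, so the spread behind the p-values may be technical there.

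The libraries held 48319272 to 74996867 gene UMIs and 3898 to 7735 cells kept. Any pair of libraries had between 89 and 269 barcodes in common among the cells kept, and 15 members have a barcode that is also kept in another library, none of them shared between 2 members. Con library 2 stood apart in sex-linked RNA. Over all cells kept it had 1218 CPM (UMIs of the gene scaled to a library sum of 1e+06) of Xist and 0.0788 CPM of Ddx3y, and Con library 1 had 0.446 and 52.3 CPM. Its members had 625 CPM of Xist and 0 of Ddx3y, whereas members of the other libraries had at most 0.776 CPM of Xist and 22.99 to 39.6 CPM of Ddx3y. In these bulk sums over cells, fewer expressing cells and less RNA per cell cannot be told apart.

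MHC class II molecules present peptides to CD4 T cells. H2-Aa, H2-Ab1 and H2-Eb1 encode their chains, Cd74 the invariant chain that chaperones them, and H2-DMa and H2-DMb1 the helper that loads peptide. Alveolar type 2 (AT2) cells, which make lung surfactant and can give rise to lung adenocarcinoma, express class II genes at rest. Among the markers, Lcn2 encodes an iron-scavenging secreted lipocalin, Hp the haemoglobin-binding haptoglobin, Lamp3 a lysosomal and lamellar body protein, Wnt10a a Wnt ligand and Scd1 a fatty acid desaturase.

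Class II promoters share a Y box, bound by the factor NF-Y. The 120 bases just upstream of the annotated start of 2 of the genes used to choose the members are shown because both carry the Y box CTGATTGG (in capitals). Sequences are from RefSeq, build GRCm38.p6, and read 5′ to 3′ on the strand of the gene. H2-Aa lies at chr17:34287824-34287943, minus strand, with the box beginning 51 bases before the start, and H2-Eb1 at chr17:34305747-34305866, plus strand, with the box beginning 62 bases before it.
H2-Aa: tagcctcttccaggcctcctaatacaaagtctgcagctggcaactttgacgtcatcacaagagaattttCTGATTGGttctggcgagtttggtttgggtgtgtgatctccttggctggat
H2-Eb1: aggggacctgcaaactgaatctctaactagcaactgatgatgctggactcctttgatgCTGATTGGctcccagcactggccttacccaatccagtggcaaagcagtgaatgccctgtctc
On either strand of the 300-base promoters, CTGATTGG occurred in 1346 of 32851 promoters (4.10%), and in 4 of the 15 promoters matched to 13 of the 17 genes of the class II list. The shorter core ATTGG, which lies inside that motif, occurred in 37.4% of all promoters and in 11 of the 15. A match is a description of the letters only.

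The label of these cells as Lcn2-positive was borne out in part. All 84 members had Cd74, with a median of 28 UMIs (8 to 499), but the medians of H2-Aa and H2-Eb1 were 1 and 1.5 UMIs, with 58 and 64 members positive. Lcn2 was detected in 28 members (33.3%), Lamp3 in 35, Hp in 49, Wnt10a in 27 and Scd1 in 76. The most frequent pair was Hp with Scd1, in 43 members, against 23 for Lcn2 with Scd1. Exactly 2 markers were found in 49 members, 3 in 25, 4 in 8 and all 5 in 2. One member held 488 of the 846 Hp UMIs, or 57.7%.

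Members lay along a range rather than in a separate cloud. Their class II sum ran from 10 to 536 UMIs, with a median of 32, or 8.46 per 10000 UMIs of the cell. Just inside the limit, 16 members had 10 to 14 class II UMIs, and just outside, 14 cells with at least 2 markers had 5 to 9. Likewise 49 members had exactly 2 markers and 62 keratin-gated cells with 10 or more class II UMIs had 1. The 10 members with 4 or 5 markers had the most UMIs per cell (median 80982.5) and a class II median of 15.7 per 10000, against 7.97 per 10000 in members with 2 markers, whose median depth was 36011.

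**Figure D1:**
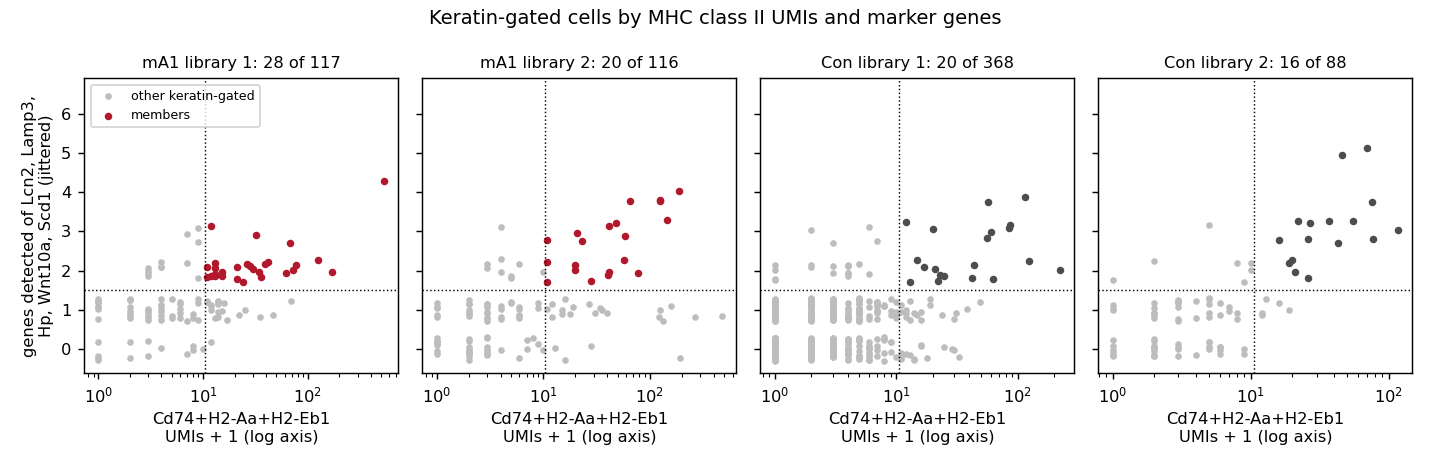
Each point is 1 keratin-gated cell: its summed Cd74, H2-Aa and H2-Eb1 UMIs plus 1 (log axis) against how many of the 5 marker genes were detected (jittered), 1 panel per library. Members (red in mA1, dark in Con) lie above and right of both dotted limits, 28, 20, 20 and 16 cells, and adjoin the other keratin-gated cells (light grey).

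Depth moves with membership. The median UMIs per cell were 33071, 56852, 24816 and 61408.5 in members (mA1 libraries 1 and 2, then Con libraries 1 and 2), against 27688, 38192.5, 21350.5 and 43347.5 in other keratin-gated cells, so members were deeper in every library. As deposited, 63.6% of cells with 2 or more markers had 10 class II UMIs, against 14.5% of cells with fewer. After each cell was thinned at random to 5000 UMIs, which left out 35 shallower cells, the shares were 35.3% (12 of 34) against 2.90% (18 of 620). Pooled counts hide the libraries: thinned, it was 4 of 14, 4 of 6, 4 of 10 and 0 of 4 cells with 2 markers, against 5 of 99, 7 of 104, 5 of 338 and 1 of 79 cells with fewer, so Con library 2 went the other way. These are the rule's own values on few cells and support nothing.

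RNA from lysed cells reaches every droplet, so class II levels were set beside T and NK cells, which should largely lack these genes. Thinned to 1000 UMIs, 40 to 65% of members per library had a Cd74 UMI, against 10.3 to 17.6% of T and NK cells, an order that the rule fixes. For H2-Eb1, also in the rule, the members' share was 5 to 12.5%, against 5.01 to 7.96% of T and NK cells. For H2-Ab1, the class II chain outside the rule, it was 10.7, 5, 15 and 12.5% of members, against 8.55, 5.70, 8.55 and 5.59% of T and NK cells. It was at or below that background in mA1 library 2 and rested on 16 to 28 members per library. Median depths were 24816 to 61408.5 UMIs in members and 2968 to 4044 in T and NK cells. On the CPM scale, Cd74 stood at 567 to 1416 CPM in members, 1418 to 2159 CPM in T and NK cells and 27506 to 30142 CPM in C1q macrophages. H2-Ab1 stood at 42.4 to 211 CPM in members, 456 to 626 CPM in T and NK cells and 9194 to 10172 CPM in C1q macrophages. On this scale the members lay below both classes in both genes, whereas the shares of Cd74 had the other order, so no order between members and T and NK cells is read.

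Markers of immune cells were present at low levels in members and in other keratin-gated cells, and their ranges overlapped with several higher maxima in members. The 15 macrophage markers outside the rule summed to 364, 222, 1117 and 456 CPM in members, in the same library order. In other keratin-gated cells they summed to 468, 573, 287 and 650 CPM, so members were higher only in Con library 1. The 13 dendritic cell markers summed to 12.3, 5.44, 42.9 and 7.38 CPM in members. The others had 14.7, 11.2, 5.52 and 6.86 CPM, so members were higher in both Con libraries, most in Con library 1. Members of that library also had the highest H2-Ab1, at 211 CPM. Flt3, Clec9a, Ccr7 and Siglech were at 0 in all 84 members. Others of the list were more frequent in members. Ccl17 had a UMI in 13.1% of members and 6.12% of the others, Batf3 in 7.14 and 2.31%, and Fscn1 in 5.95 and 1.32%. The 11 neutrophil markers summed to 425, 295, 222 and 790 CPM in members, against 241, 162, 271 and 247 CPM in the others, and were higher in members in 3 libraries. Of the members' UMIs of this list, 1740 were of Cxcl3, a chemokine that tumour cells also make. The other 10 markers summed to 1.55 to 109 CPM in members and 10.1 to 94.6 CPM in the others, and Ngp, Camp and Ly6g were at 0 in members. The T and NK markers summed to 47.5, 15.5, 69.0 and 122 CPM in members, against 29.3, 29.5, 32.5 and 55.2 CPM in the others, higher in 3 libraries. Trbc2 led them with 192 UMIs, and Cd3d, Cd3e (in the gate) and Cd8a were at 0 in members. The 9 B cell markers outside the rule summed to 23.3 to 150 CPM against 41.9 to 116 CPM. Ms4a1, Pax5 and Bank1 were at 0 in members, whereas Cd79b had a UMI in 19.0% of members and 5.95% of the others. A Ptprc or C1q UMI was present in 21 of 84 members (25%) and in 102 of 605 others (16.9%), and members were deeper. No member carried both hashtags. What part free RNA or joined cells of these types have in the differences was not tested beyond the values without such cells, given further on.

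Genes of AT2 cells were the leading difference outside the rule. Of 9704 genes with at least 20 UMIs over the members and not used by the rule, 7 were at least 2-fold higher in members than in other keratin-gated cells in each of the 4 libraries (0.0721%): Cxcl15, Chil1, Clip4, Slc34a2, AU021092, Irx1 and Sftpd. Only Hmga2 and Onecut2 were 2-fold lower in each (0.0206%). Differences are log2 of CPM plus 5, which understates those of low genes, and the filter reads the members alone, so genes absent from them are left out. Without the filter the counts were 7 higher and 4 lower.

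Sftpd, surfactant protein D, a collectin of the airspace, had 366 and 685 CPM in members of the mA1 libraries and 777 and 757 CPM in members of the Con libraries, against 168, 229, 107 and 227 CPM in other keratin-gated cells in the same order. Members were above the others in each library, by 1.80 ± 0.72 (log2, mean ± SD, n = 4 libraries). A UMI was found in 78 of 84 members (92.9%) and in 44.8% of the others. At 5000 UMIs per cell, 71.4, 90, 65 and 87.5% of members had a Sftpd UMI, against 24.7, 34.4, 23.5 and 29.9% of the others.

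Cxcl15, an epithelial chemokine of the lung, had 299, 575, 697 and 563 CPM in members, against 88.3, 118, 111 and 79.1 CPM in other keratin-gated cells. The lowest value among members was above the highest among the others, and the difference was 2.32 ± 0.47 (log2, n = 4). Slc34a2, the phosphate transporter of AT2 cells, had 18.8, 11.6, 16.9 and 16.6 CPM in members against 2.09, 1.70, 3.22 and 1.19 CPM, a log2 difference of 1.57 ± 0.24. The homeobox factor Irx1 had 25.4, 35.7, 24.5 and 36.9 CPM in members against 6.63, 8.28, 8.05 and 11.04 CPM (1.39 ± 0.18). For both genes the groups of values did not overlap.

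Chil1, a chitinase-like protein of AT2 cells, had 152, 68.3, 76.6 and 9.22 CPM in members and at most 4.63 CPM in other keratin-gated cells. It rested on few cells: 16 members had a UMI and 1 of them held 54.2% of all. With the top cell of each gene left out in each library and class, its mean log2 difference was 1.08 in place of 3.19, whereas that of Sftpd was 1.66 and that of Cxcl15 was 2.20. AU021092 (2.47) also drew 33.6% of its UMIs from 1 member.

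The surfactant and lamellar body list holds 19 genes, of which 4 are in the rule and 14 others could be measured. Of these 14, 8 were higher in members in all 4 libraries, where 11.4% of all genes were, none was lower in all 4 (9.17% of all genes), and the median was 0.75 (0.01 over all genes). These all-gene values are also the background for the other lists set against other keratin-gated cells below. Napsa, the protease that processes surfactant protein B, averaged 88.0 ± 80.5 CPM in members and 18.8 ± 11.9 CPM in the others (log2 1.74). Abca3, the lipid transporter of lamellar bodies, differed by 0.56, Dram1, a lysosomal autophagy protein, by 0.92 and the alarmin Il33 by 0.82. The other 6 did not keep a direction: S100g (-0.38), Lpcat1 (0.05), Muc1 (0.50), Hc (0.57), Ctsh (0.65) and Lgi3 (0.67, level in Con library 2 at 0 in both classes). The list was chosen with earlier results of these data known.

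**Figure D2:**
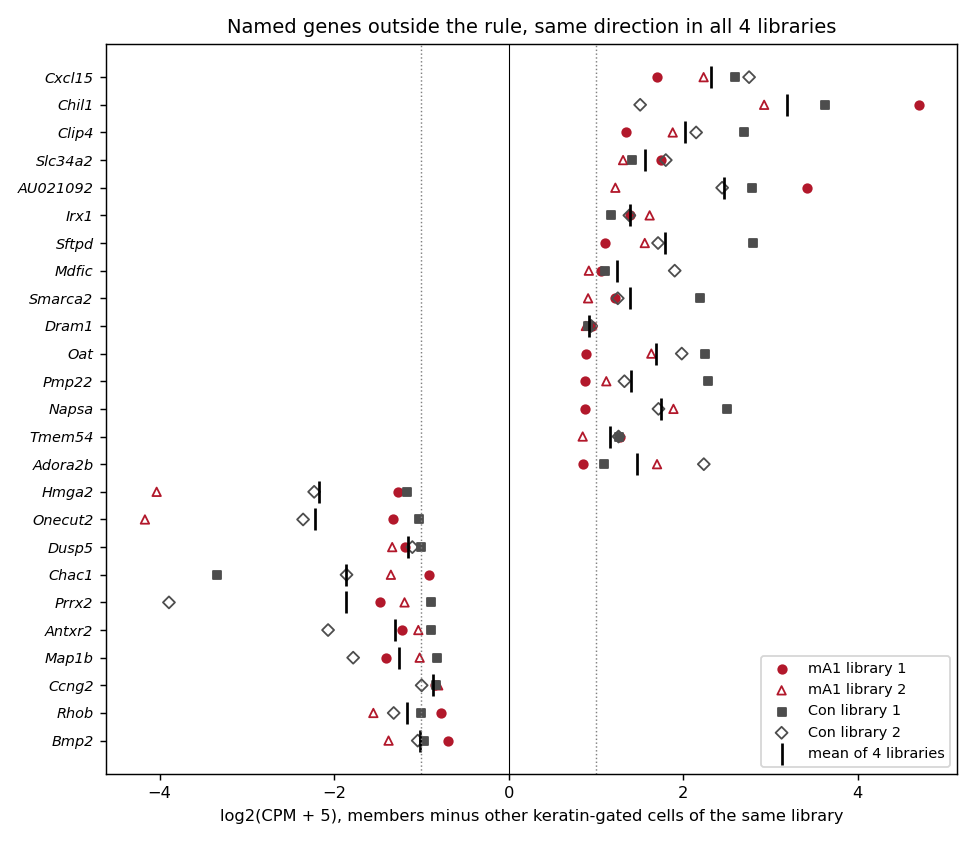
Log2(CPM + 5) in members minus that in other keratin-gated cells of the same library, for the 15 higher and 10 lower genes with the largest smallest difference over the libraries. Points are libraries (mA1 red, Con dark), bars the mean of 4; Cxcl15 lies between 1.70 and 2.76 and Hmga2 between -4.04 and -1.16.

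Other genes at the head of the ranking were Mdfic, Smarca2, Dram1, Oat, Pmp22, Napsa, Tmem54 and Adora2b, each higher in all 4 libraries by a mean of 0.92 to 1.74. Smarca2, an ATPase of SWI/SNF chromatin remodelling complexes, averaged 26.9 CPM in members and 7.12 CPM in the others. Oat, a mitochondrial aminotransferase, averaged 60.8 and 15.6 CPM. Adora2b, an adenosine receptor, averaged 24.7 and 5.27 CPM.

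Class II genes outside the rule were in part higher as well. H2-Ab1 had 158, 76.1, 211 and 42.4 CPM in members, against 26.5, 41.4, 17.0 and 11.6 CPM in other keratin-gated cells. It was higher in every library, by 2.00 ± 1.08 (log2), and 65 of 84 members had a UMI, beside a thinned share near that of T and NK cells. H2-DMa averaged 18.4 ± 9.65 CPM in members and 4.998 CPM in the others (1.17), and H2-DMb1 38.1 ± 13.4 and 15.3 CPM (1.06). Of 9 measured genes of the class II list outside the rule, 4 were higher in all 4 libraries, with Rfx5, a class II promoter factor, as the fourth (0.55), and none was lower in all 4. Ctss, Ifi30 and Lgmn, which process antigen, and Rfxank and Rfxap, of the complex that binds the promoters, did not keep a direction. At 5000 UMIs per cell H2-Ab1 was found in 35.7, 20, 35 and 25% of members, against 16.5, 10, 8.54 and 8.96% of the others.

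Class I presentation genes were in part higher too. All 14 measured genes of that list had a mean difference above 0, 6 were higher in all 4 libraries and none was lower in all 4. Their median was 0.44, against 0.20 for the 9 class II genes, of which 5 had a mean above 0. The immunoproteasome subunits led: Psmb8 had 134, 66.0, 59.8 and 66.4 CPM in members, a mean difference of 1.51 ± 0.84, and Psmb9 differed by 1.12. H2-K1 (0.50) and H2-D1 (0.35), the classical class I heavy chains, were higher by less. Among 18 interferon-response genes, only Irf9 was higher in all 4 libraries, and Isg15, an interferon-induced modifier, ranged from -0.92 to 3.20 between libraries.

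Of 7 measured co-stimulation and checkpoint ligands, 5 were higher in all 4 libraries. Icam1, the adhesion ligand of LFA-1, averaged 190 ± 29.1 CPM in members and 96.7 CPM in the others (0.96), Cd47, the ligand of SIRPA, differed by 0.65 and Tnfsf9 by 0.53. Cd276 (0.40) and Nectin2 (0.14) were the rest. The AT1 list, for the flat cells of gas exchange, had 5 of 12 genes higher in all 4, led by the tight-junction gene Cldn18 (1553 ± 447 CPM in members and 695 CPM in the others, 1.20) and Pdpn (1.03), and Ahnak lower in all 4 (-0.24). The lineage factor Nkx2-1 was higher by 0.38 and Sox9, a factor of distal lung progenitors, lower by 0.73.

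Several genes of progressed tumour cells were lower in members. Hmga2, a chromatin protein that marks advanced lung adenocarcinoma in mice, had 75.4, 2.33, 59.8 and 21.2 CPM in members, against 189, 115, 140 and 118 CPM in other keratin-gated cells. Every member value lay below every value of the others. The mean difference was -2.17 ± 1.33 (log2), and 13 of 84 members had a UMI, of which 1 held 49.7% of all (mean difference -3.26 without the top cell of each library and class). Onecut2, a transcription factor, had 38.5, 0, 22.99 and 30.4 CPM in members against 104, 85.0, 52.1 and 176 CPM (-2.22). At 5000 UMIs per cell, 3.57, 0, 15 and 0% of members had an Hmga2 UMI, against 30.6, 22.2, 28.7 and 32.8% of the others. A share of 0 of 20 or 0 of 16 members is limited by their number.

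Of 27 measured progression genes 7 were lower in all 4 libraries and 1 was higher, with a median of -0.38. Besides Hmga2 and Onecut2 the lower genes were Chac1, a glutathione-degrading enzyme (-1.87), Slc4a11 (-1.20), A2ml1 (-0.91), Tm4sf1 (-0.87) and Plaur (-0.38). Further genes lower in all 4 libraries at the head of the ranking were Dusp5, Prrx2, Antxr2, Map1b, Ccng2, Rhob and Bmp2, by means of -0.87 to -1.86. Immediate early genes were lower as well: 9 of 20 in all 4 libraries, none higher in all 4, with a median of -0.37. Klf2 averaged 189 CPM in members and 358 CPM in the others (-1.04), Klf4 differed by -0.76 and Jun by -0.55. These genes respond to tissue dissociation in general, and the part of handling was not tested.

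Cycling genes had means above 0 in 19 of 20, but only Tyms was higher in all 4 libraries. Top2a ranged from -0.91 to 4.32 and Ube2c from -0.88 to 5.24 between libraries. Single cells carried them: 1 member of Con library 2 held 88 of the 129 Top2a UMIs of all members and 1 held 209 of the 247 of Ube2c. Lipid synthesis genes did not part: Me1 was higher and Insig1 lower in all 4 of 25, with a median of 0.05, although Scd1, a lipid gene, is in the rule. NF-kB response genes had a median of -0.05, and 2 of 21 were higher and 2 lower in all 4, near the shares of all genes (11.4 and 9.17%).

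Malat1, the gene targeted in mA1, made up 1.94 and 4.54% of UMIs in members of the mA1 libraries and 3.06 and 1.43% in members of the Con libraries. In other keratin-gated cells the shares were 3.02, 4.70, 4.59 and 2.92%, above the members in each library. The members' difference was -0.57 ± 0.40 (log2), and that of Neat1, a second nuclear RNA, was -0.64 ± 0.35. Members thus held less of both RNAs than the other keratin-gated cells, in mA1 and in Con, with -0.29 and -0.45 when cells of shared barcodes were left out.

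The main differences were recomputed with doubtful cells left out, and these 4 genes kept their direction. Leaving out cells with any Ptprc or C1q UMI gave means of 1.95 for Cxcl15, 1.85 for Sftpd, 2.02 for H2-Ab1 and -2.57 for Hmga2, with 11 genes 2-fold higher and 8 lower. Leaving out cells whose barcode is kept in another library gave 2.21, 1.66, 1.95 and -3.20 for the same genes. In that setting 4 genes were 2-fold higher and 2 lower, of which 2 and 0 were among those named. With cells of at least 10000 UMIs only, the means were 2.33, 1.77, 1.92 and -2.18.

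Levels were also read by criterion. The keratin-gated cells fell into members (84), cells with class II UMIs only (81), cells with markers only (48) and cells with neither (476). Mean Cxcl15 was 534 CPM in members, 143 with class II only, 269 with markers only and 60.5 with neither. Sftpd was 646, 274, 143 and 163 CPM in that order, and H2-Ab1 122, 58.0, 9.90 and 14.4 CPM. Mean Hmga2 was 39.7, 105, 146 and 150 CPM, lowest in members. Slc34a2 was 16.0, 4.33, 3.18 and 1.07 CPM. Some of these orders failed in single libraries. In mA1 library 1, cells with class II only had more Sftpd than members (390 against 366 CPM) and less Hmga2 (61.5 against 75.4 CPM). In mA1 library 2 they had more H2-Ab1 (154 against 76.1 CPM). In the other libraries these 3 genes kept the order of the means between the 2 parts. Cells with class II only numbered as few as 5 in a library, and those with markers only 7.

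**Figure D3:**
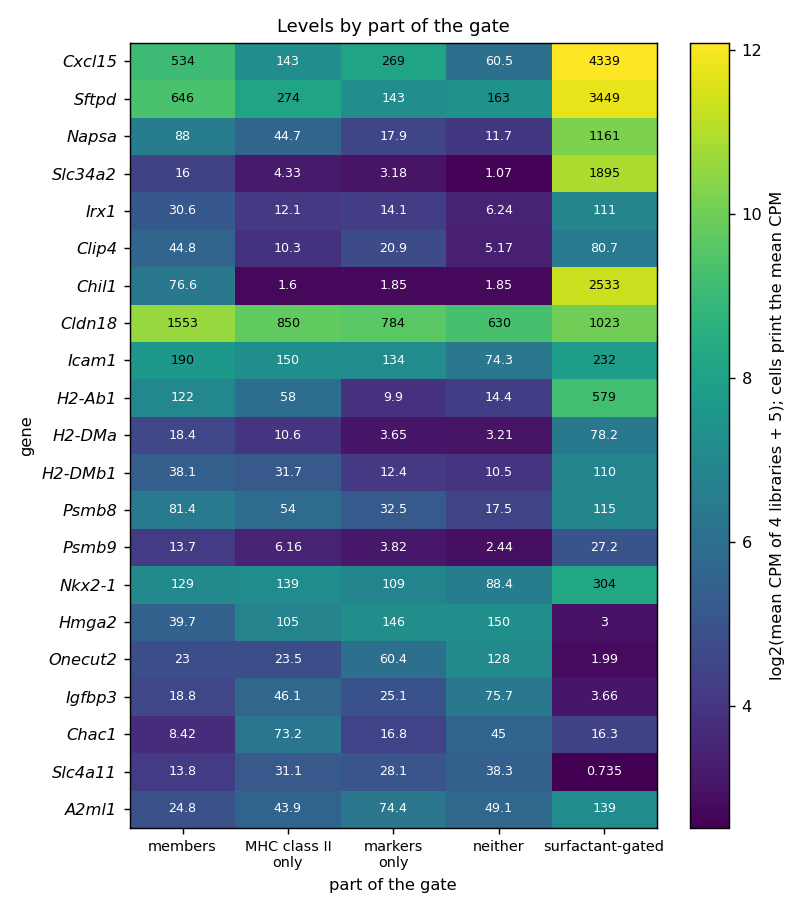
Mean CPM of 4 libraries (printed in each field; colour is log2 of the mean plus 5) for 21 genes in members, the 3 other parts of the keratin gate and surfactant-gated cells. Sftpd stands at 646 CPM in members, 163 CPM with neither criterion and 3449 CPM in surfactant-gated cells.

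Surfactant-gated cells, with at least 20 UMIs and 5% of all UMIs from Sftpa1, Sftpb and Sftpc and no fewer of these than of the keratins, numbered 174. Against them, 102 genes were 2-fold higher in members in all 4 libraries (1.05%) and 123 lower (1.27%), again without a test. All 14 surfactant and lamellar body genes were lower in members in all 4, with a median of -3.01, a direction that the gates favour. H2-Ab1 averaged 122 CPM in members and 579 CPM in surfactant-gated cells (-2.38). Over all genes 23.7% were higher and 11.6% lower in all 4 (median 0.15). Of the progression list 16 of 27 were higher in members in all 4 and 1 was lower (median 1.75), among them S100a6 (2.28), Anxa1 (1.99) and Plaur (2.33). Hmga2 averaged 39.7 CPM in members and 3.00 CPM in surfactant-gated cells. Of 24 chemokine and cytokine genes 13 were higher and 4 lower in all 4 (median 1.05), with the neutrophil attractant Cxcl3 at 398 and 22.8 CPM. In Sftpd, Cxcl15, Napsa and Slc34a2 the members' mean thus lay above that of other keratin-gated cells and below that of surfactant-gated cells.

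Within the members, those with an Lcn2 UMI (28) were set beside those without (56), as a description of 19 genes. They numbered 4, 7, 10 and 7 in the 4 libraries. Slpi, a secreted protease inhibitor, had 328, 48.2, 70.2 and 94.1 CPM in Lcn2-positive members, against 106, 10.6, 31.5 and 9.73 CPM in the rest. C3, the central complement component, had 260, 20.7, 15.05 and 42.8 CPM against 7.21, 10.6, 3.94 and 11.3 CPM. Both were higher in the Lcn2-positive members of every library, but mA1 library 1 rested on 1 cell, which held 81 of the 82 Slpi UMIs, and on 1 that held 63 of the 65 C3 UMIs of its 4 Lcn2-positive members. Without the top cell of both subsets, Slpi stood there at 16.6 against 20.9 CPM, lower in Lcn2-positive members, and C3 at 33.2 against 5.35 CPM. Sftpd was higher in every library (633, 1180, 880 and 862 against 298, 432, 615 and 678 CPM), and Cldn18 was lower in every library (376, 1441, 1262 and 1629 against 1065, 1669, 2466 and 2221 CPM). In mA1 library 1 the 4 Lcn2-positive members had 36011, 9540, 189480 and 14638 UMIs. The 633 and 376 CPM there are thus mostly the values of 1 cell. Lcn2-positive members were deeper, with a median of 42209.5 against 36580.5 UMIs.

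Readouts outside the rule could be tested over the 4 libraries. Hashtag antibodies, aimed at CD45 and MHC class I, gave median counts of 339, 327, 535 and 253 in members against 172, 216, 130 and 163 in other keratin-gated cells. Members were higher in 4 of 4 libraries, by 0.318 ± 0.202 (log10, SD, n = 4; exact two-sided sign-flip permutation p = 0.125, the smallest 4 libraries allow). The ratios of these medians were 1.97, 1.51, 4.08 and 1.55, beside ratios of median UMIs per cell of 1.19, 1.49, 1.16 and 1.42. In mA1 library 2 and Con library 2 the hashtag counts were thus higher by about as much as the depth, and hashtag counts were not corrected for it. EGFP, a transcript in the reference whose source the labels do not name, was found at 5000 UMIs in 0, 10, 5 and 6.25% of members and 9.41, 6.67, 3.05 and 10.4% of the others. The mean difference of -2.08 points did not part from 0 (exact permutation p = 0.625, n = 4). Unthinned, the shares were 17.9, 60, 25 and 50% against 16.9, 35.4, 9.20 and 47.2%.

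Whether Malat1 activation changed how many tumour cells were members was asked from the share of keratin-gated cells. Members made up 23.9% (28 of 117; exact 95% interval 16.5 to 32.7%) and 17.2% (20 of 116; 10.9 to 25.4%) in the mA1 libraries, against 5.43% (20 of 368; 3.35 to 8.27%) and 18.2% (16 of 88; 10.8 to 27.8%) in the Con libraries. Con library 1 was low, while Con library 2 lay within the range of mA1. The group means were 20.6 ± 4.73% in mA1 and 11.8 ± 9.01% in Con (SD, n = 2 libraries each), a difference of 8.78 points (exact two-sided permutation p = 0.667, where 0.333 is the smallest that 2 against 2 allow). With 3 markers asked for in place of 2, the difference was -1.45 points. At 5000 UMIs per cell the shares were 3.54% (4 of 113) and 3.64% (4 of 110) in mA1, against 1.15% (4 of 348) and 0% (0 of 83; exact 95% interval 0 to 4.35%) in Con. At equal depth both Con libraries lay below both mA1 libraries, on 12 members in all, with a difference of 3.01 points (exact two-sided permutation p = 0.333, the smallest possible). Intervals cover counting error only.

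**Figure D4:**
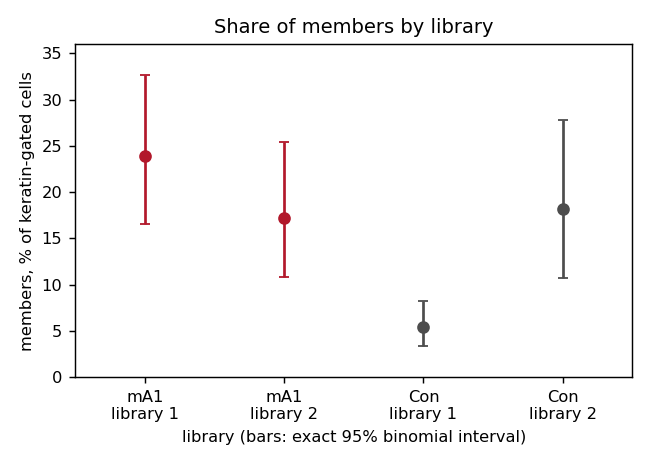
Members as a percentage of keratin-gated cells in each library, with exact 95% binomial intervals (counting error only). The mA1 libraries stand at 23.9 and 17.2%, the Con libraries at 5.43 and 18.2%.

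Between mA1 and Con, no gene passed within the members. UMIs of the members were summed per library (652514 to 1287882 UMIs) and tested with edgeR's quasi-likelihood test with Benjamini-Hochberg adjustment. Of 8305 genes 0 were called (0%), with 280 at an unadjusted p under 0.05, and DESeq2 called 1, the actin gene Acta2 (named after its value was seen). Fits without 1 library leave 1 library in a group. Their number of calls depended on which library was left out, and it is not read. Without Con library 1, the Con library that remains also differs from both mA1 libraries in sex-linked RNA, so group and sex cannot be told apart. With library number as a block the edgeR test called Phgr1 and Apoc2, although nothing shows that the numbers pair libraries. The self-test on simulated sums of this comparison recovered 98% of genes changed by 2 on the log2 scale, with 12 false calls among 8383 genes. Its changed genes were drawn from those of high counts only, with the same fixed dispersion for every gene. The 98% therefore holds at that dispersion only, which was not compared with the spread of these libraries. It does not extend to genes of low counts or genes held by few cells.

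The genes of smallest p are given with their values only. Lif, a cytokine of the interleukin-6 family, had 22.1 and 18.6 CPM in mA1 members, against 70.5 and 80.2 CPM in Con members (log2 fold change -1.85 ± 0.33 SE, edgeR adjusted p = 0.9996). Ankrd1, a target of YAP signalling, had 114 and 151 CPM in mA1 members, against 41.4 and 43.3 CPM in Con members (1.69 ± 0.32, edgeR adjusted p = 0.9996). Both mA1 values rested on single cells: 1 held 98 of 139 UMIs in mA1 library 1 and 1 held 190 of 195 in mA1 library 2. Without the top cell of each library the levels were 37.2 and 4.66 CPM in mA1 members, against 18.6 and 23.1 CPM in Con members. Both mA1 cells have a barcode kept in another library, and without all such cells the direction turned (-1.15). Palmd, Gnai1 and Ep400 had fold changes of 1.80, 1.74 and 1.37, and Gmnn, Ly6g6c, Fabp5 and Idi1 of -1.92, -1.88, -1.27 and -2.16, each at the same adjusted p. Hc, complement component 5, had 34 UMIs in mA1 members and 0 in Con members. With 3 UMIs over the group as the floor for Con, this is 7.85-fold higher. The UMIs came from 4 of 28 and 3 of 20 mA1 members, and single cells held 7 of 18 and 10 of 16. The ratio is thus no bound for a gene held by so few cells. Single Con cells also held 22 of 30 and 29 of 37 UMIs of Ly6g6c, and 10 of 17 of Idi1 in Con library 1. In each of the genes of smallest p the libraries of the groups did not overlap with all cells kept in. Their choice by p favours this. Groups of 2 libraries also part often, the smallest exact two-sided permutation p being 0.333, so the parting is no result about these genes.

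**Figure D5:**
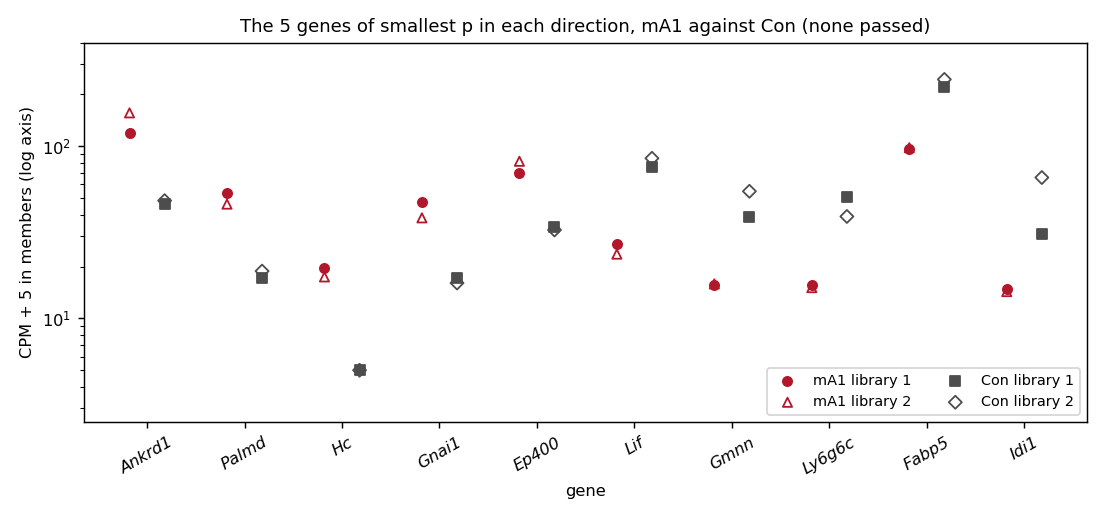
CPM plus 5 (log axis) in members of each library for the 5 genes of smallest p in each direction, mA1 (red, left) beside Con (dark, right). The groups part in all 10, which were chosen by p, and none passed adjustment over 8305 genes (0% called).

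Gene lists held no call between mA1 and Con. Over all genes tested, 4315 of 8305 had a fold change above 0, with a median of 0.02. Lipid synthesis genes had a fold change above 0 in 5 of 22 and a median of -0.51. Among them were Fabp5 and Idi1, both already chosen by p. Fabp5, a fatty acid carrier, had 90.9 and 93.2 CPM in mA1 members, against 216 and 240 CPM in Con members. Idi1, of sterol synthesis, had 9.83 and 9.32 CPM in mA1 members, against 26.1 and 60.9 CPM in Con members. Immediate early genes were above 0 in 4 of 20 (median -0.51), and the 11 cell cycle genes tested had a median of -1.56. Few cells carried some of the cell cycle genes: Cdk1 had 8.19 and 3.88 CPM in mA1 members, against 9.20 and 104 CPM in Con members, and 1 cell held 91 of the 113 UMIs of Con library 2. Hmgb2, a chromatin protein of dividing cells, had 55.7 and 62.9 CPM in mA1 members, against 67.4 and 292 CPM in Con members. It had a UMI in 24 of 28, 18 of 20, 14 of 20 and 15 of 16 members. Without the top cell of each library it stood at 52.7 and 58.4 CPM in mA1, against 53.4 and 200 CPM in Con. Con library 2 alone was high. Class II genes had 3 of 7 above 0 (median -0.09), and H2-Ab1 averaged 117 ± 58.0 CPM in mA1 members and 127 ± 120 CPM in Con members. Surfactant and lamellar body genes had 7 of 14 above 0 (median 0.05). Malat1 itself had a fold change of 0.59 ± 0.62 (SE, edgeR adjusted p = 0.9996), and without mA1 library 2 it was -0.26.

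Whether the mA1 effect differed between members and other keratin-gated cells was tested as an interaction with library as a block. The simulated test of this model recovered 73% of genes whose effects differed by 2 on the log2 scale, with 7 false calls among 10119 genes. It too changed only genes of high counts, at a fixed dispersion not compared with the spread of these libraries. In the data, of 10252 genes 2 were called (0.0195%), both lower: Chil4, a chitinase-like protein, and Scgb1a1, the club cell secretory protein. Chil4 had 0 and 0 UMIs in mA1 members and 0 and 17 in Con members, against 148 and 9 UMIs in other mA1 cells of the gate and 0 and 2 in other Con cells of the gate. Of these 148, 1 cell held 141. Scgb1a1 had 4 and 0 UMIs in mA1 members and 15 and 5 in Con members, against 194, 9, 58 and 11 in the others in the same library order, and 1 cell held 155 of the 194. In both genes 1 cell of mA1 library 1 outside the members held most UMIs.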

How the data were processed

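The deposited matrices hold UMI counts per gene and barcode, which the authors made with Cell Ranger 6.0.1 and mm10 (per the file headers and, for the build, processing notes of the submitters). A barcode was kept from 500 gene UMIs and 250 genes upward, with mitochondrial UMIs up to 15%. No doublet caller was run. Cells positive for both hashtags (Gaussian mixture, scikit-learn 1.9.0) were left out as an alternative. The members and gene lists were chosen with earlier results of these data known.

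Counts were summed per library and cell class. Members minus other keratin-gated cells is log2 of CPM plus 5, for genes with at least 20 UMIs over the members, per library and untested. The 15 higher and 10 lower genes named have the largest smallest difference over the 4 libraries, and between groups the 5 of smallest p in each direction are named. mA1 and Con were compared with edgeR 4.0.16 (R 4.3.3, TMM scaling, robust quasi-likelihood, two-sided), called at an adjusted p under 0.05, and with DESeq2 1.42.0 as an alternative. Single values used exact permutation over the 4 libraries (scipy 1.17.1). Cells were thinned to 5000 or 1000 UMIs without replacement. Both edgeR models were tested on simulated data. PCR copies are collapsed by UMI, and intervals cover counting error only. The values of 1 gene of the progression list are not reported here.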

Additional observations from a re-analysis of the deposited data

Results flagged for a closer look

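Chil4 and Scgb1a1 were the genes in which the mA1 effect differed between members and other keratin-gated cells by the test of the difference itself. For Chil4 the log2 difference of effects was -13.6 (edgeR interaction, adjusted p = 0.00634). All Chil4 UMIs of members came from 1 cell of Con library 2, and the fitted size depends on groups at 0. For Scgb1a1 it was -5.72 (edgeR interaction, adjusted p = 0.0152). Neither was called when cells with any Ptprc or C1q UMI were left out, and DESeq2 called a different gene, Pclaf. Groups of 2 libraries are too small to look for single libraries far from their group.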

How the results depend on the processing

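The share difference of 8.78 points turned to -1.45 with 3 of 5 markers, was 3.01 points with cells thinned to 5000 UMIs, and ranged from 2.40 to 15.2 when 1 library was left out. The EGFP difference was 11.04 points unthinned, and ranged from -3.89 to 0.36 without 1 library, being above 0 without mA1 library 1. The hashtag difference kept its direction, at 0.221 to 0.365 without 1 library.

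Genes 2-fold higher in members numbered 19 and 4 at pseudocounts of 1 and 10 CPM, 11 without cells holding a Ptprc or C1q UMI, 4 without cells of shared barcodes (chosen after seeing the data) and 7 to 25 without 1 library. Genes 2-fold lower numbered 5 and 1 at those pseudocounts, 4 unfiltered, 1 at a minimum of 100 UMIs, 5 at a class II minimum of 20 UMIs, 1 with cells of at least 10000 UMIs, 8 without cells holding a Ptprc or C1q UMI, 12 without the top cell of each gene (chosen after seeing the data) and 3 to 10 without 1 library.

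Calls between mA1 and Con numbered 1 with DESeq2, 112 unfiltered and 0 to 118 without 1 library. The replicate block on library numbers gave 2, with a correlation of deviations of -0.02 between equal numbers, so the numbers are not taken to pair libraries. Interaction calls numbered 1 with DESeq2, 71 unfiltered, 0 at a class II minimum of 20 UMIs, 6 without cells of both hashtags, 0 without cells holding a Ptprc or C1q UMI and 3 to 55 without 1 library.

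Directions that turned were those of Ankrd1 (-1.15 without cells of shared barcodes), Malat1 (-0.26 without mA1 library 2; -0.26 to 1.26 without 1 library) and Neat1 (0.18 without mA1 library 1, 0.06 without Con library 1, down to -0.32) between groups, and in the interaction Ltf (5.42 without cells holding a Ptprc or C1q UMI, 1.90 without Con library 2, down to -4.76) and Neat1 (0.21 without mA1 library 1, 0.13 without Con library 2, down to -0.43). For Ankrd1 the cells left out include 1 in each mA1 library, which held 98 of 139 and 190 of 195 UMIs of the mA1 members. The cause of the other changes was not tested. With 16 to 28 members per library, genes held by few cells are limited by the number of cells.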
